A study of Mus musculus with 20 samples.

Results

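The gelsolin family is described here in 3 cell populations isolated from mouse leg muscle. The members are 5 genes, Gsn, Capg, Scin, Flii and Svil, taken by symbol from a table of 24393 genes. They were selected on values of these same libraries, in particular the share of all counts that fell on Gsn in each of the 6 groups, so every value of Gsn is given as a description without a test. The other 4 members were tested in the fit over all genes. All 5 members passed the filter on low counts.

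Gelsolin-family proteins are built from repeats of a calcium-regulated domain that binds actin. Gelsolin itself (Gsn) severs actin filaments, caps the fast-growing barbed end and is released from it by phosphoinositides, and a form with a signal peptide circulates in plasma as a scavenger of actin. CapG (Capg) caps barbed ends without severing and is abundant in macrophages, and scinderin (Scin, also called adseverin) severs filaments in secretory and blood cells. Flightless I (Flii) joins gelsolin repeats to leucine-rich repeats and also acts in the nucleus, while supervillin (Svil) is a large membrane-associated protein that binds both actin and myosin II and has a muscle form. Fibroblasts and the mesenchymal progenitors of muscle are known for high Gsn expression.

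RNA was sequenced from cells of the quadriceps, tibialis anterior and gastrocnemius of DKO and WT mice. The populations are titled FAP (fibro/adipogenic progenitors), SMP and Misc in the labels, while the design text names FB in place of Misc. There were 4 FAP, 4 Misc and 2 SMP libraries for each condition, 20 in all. The strain, age and promoter or allele details of the animals were not part of the labels used here, and the labels do not spell out what DKO stands for. Des and Syne1, taken as the likely pair of disrupted genes, were checked first. Des was lower in DKO by 1.81 ± 0.18 (log2 change ± SE) in FAP, 1.25 ± 0.25 in Misc and 1.45 ± 0.19 in SMP. The fall passed the edgeR quasi-likelihood test with Benjamini-Hochberg adjustment in each population (adjusted p = 2.7e-07, 0.00094 and 1.6e-05). Syne1 passed in Misc and SMP (adjusted p = 0.00028 and 0.00032) and not in FAP (adjusted p = 0.11).

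Libraries held from 5826000 to 17730111 counts, with the SMP DKO pair the shallowest at 5826000 and 6124928. Within groups, log2 values correlated across genes at 0.975 in the SMP DKO pair and at 0.99 to 0.996 elsewhere. The 7 FAP markers summed to 23505 to 27059 counts per 1000000 (CPM, with library totals scaled by TMM) in FAP and to 17402 to 23348 in Misc. Within that list Ly6a was at 431 to 703 CPM in FAP and 2.61 to 7.96 in Misc, while Dcn was lower in FAP WT (16746 to 17886) than in Misc WT (19948 to 20715). A list of 8 tendon genes summed to between 51632 and 73693 CPM in Misc. Satellite-cell genes summed to 2791 to 3087 CPM in SMP and to at most 373 CPM elsewhere. SMP DKO replicate 2 stood apart from the other 3 SMP libraries. The 15 leukocyte and macrophage markers summed to 499 CPM in it, against 32.9 in DKO replicate 1 and 28.3 and 21.7 in WT. In the same order, 7 FAP markers summed to 3938 CPM against 1074, 1748 and 1921. The endothelial list was at 555 against 109, 293 and 216, and the muscle fibre list at 541 against 174, 33.8 and 48.4. The adipocyte list was at 194 against 18.4, 33.2 and 23.3, and the tendon list at 5394 against 2655, 4626 and 4153. The satellite-cell, pericyte and nerve lists were not highest there. Results on Gsn, Capg, Scin and Svil that use SMP DKO are also given without replicate 2. Because these are bulk libraries, a lower share of a cell type and less RNA per cell cannot be told apart.

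The Gsn gene spans 51544 bases of chromosome 2 (35256359 to 35307902, GRCm38.p6, Entrez 227753). RefSeq places 3 start sites in it, and the deposited count sums all of them. In the GENCODE M21 annotation, a complete coding transcript from near the first start encodes 731 residues and another from the third start encodes 780, which correspond to the cytoplasmic and the longer secreted form. The counts therefore do not tell which form any population made. The 250 bases before the start were matched in RefSeq (GRCm38.p6) for 4 members, Gsn, Capg, Scin and Flii. The regions before the outer starts of Gsn and before Scin are shown, 5′ to 3′ on the gene's strand. Of these 4 members, Gsn and Scin had the largest WT log2 differences of FAP from Misc and from SMP. Capitals mark GC boxes (GGGCGG, or CCGCCC for the other strand).
Gsn start 1, chr2:35256109-35256358, plus strand: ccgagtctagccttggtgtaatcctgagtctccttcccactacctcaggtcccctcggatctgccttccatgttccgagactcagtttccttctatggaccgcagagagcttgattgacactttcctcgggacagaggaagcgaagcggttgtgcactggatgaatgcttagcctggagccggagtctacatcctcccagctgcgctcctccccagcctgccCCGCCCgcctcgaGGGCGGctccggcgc
Gsn start 3, chr2:35282130-35282379, plus strand: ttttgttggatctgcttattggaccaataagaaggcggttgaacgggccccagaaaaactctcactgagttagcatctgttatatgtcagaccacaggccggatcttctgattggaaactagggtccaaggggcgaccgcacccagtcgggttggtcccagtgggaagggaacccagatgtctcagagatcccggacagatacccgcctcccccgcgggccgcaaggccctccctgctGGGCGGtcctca
Scin start, chr12:40134229-40134478, minus strand: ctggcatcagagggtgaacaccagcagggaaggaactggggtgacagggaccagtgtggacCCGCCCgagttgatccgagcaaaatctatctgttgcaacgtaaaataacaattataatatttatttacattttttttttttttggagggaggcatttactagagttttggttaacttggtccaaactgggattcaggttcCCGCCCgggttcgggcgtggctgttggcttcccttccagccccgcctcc

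A GC box stood 2 times before the first Gsn start, 1 time before the second (chr2:35266494-35266743) and the third, and 2 times before Scin. None was found before Capg or Flii, and over all 32851 promoter windows of this length 32.7% hold one on either strand. A CCAAT box (CCAAT on either strand, in 33.8% of windows) was found 3 times before the third Gsn start and 1 time before the second, and in none of the other windows. No window of these 4 genes held TATAAA (12.4% of all windows) or the CArG box of serum response factor (1.47%). The G and C content was 60.8% before the first Gsn start and 49.2% before Scin, against a median of 52.4% over all windows. These matches describe letters in a window and no binding was measured.

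Capg lies on chromosome 6 (72538282 to 72562983, Entrez 12332), Scin on chromosome 12 (40059769 to 40134228, Entrez 20259), Flii on chromosome 11 (60714143 to 60727263, Entrez 14248) and Svil on chromosome 18 (4920467 to 5119293, Entrez 225115). Flii overlaps Llgl1 by 44 bases, and Llgl1 had 8587 counts over all 20 libraries. Gsn and Svil overlap the predicted genes Gm39795, Gm52363 and Gm34326, which had no row in the count table, and whether the counting used strand is not stated, so reads from such overlaps cannot be told apart.

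Gsn was the most counted gene in every FAP library. It took 5.07%, 5.79%, 6.48% and 5.3% of all counts in the FAP DKO libraries, and 5.0%, 4.64%, 5.0% and 4.91% in FAP WT. Its share was 1.57%, 1.39%, 1.51% and 1.38% in Misc DKO, and 1.08%, 1.16%, 1.43% and 1.13% in Misc WT. In SMP it was 0.153% and 0.826% in DKO and 0.111% and 0.128% in WT. FAP and Misc thus did not overlap in either condition, and within SMP one library, DKO replicate 2, lay far above the other 3. The widest 95% Wilson interval of any of these shares spanned 0.035 percentage points, which covers counting error only.

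**Figure D1:**
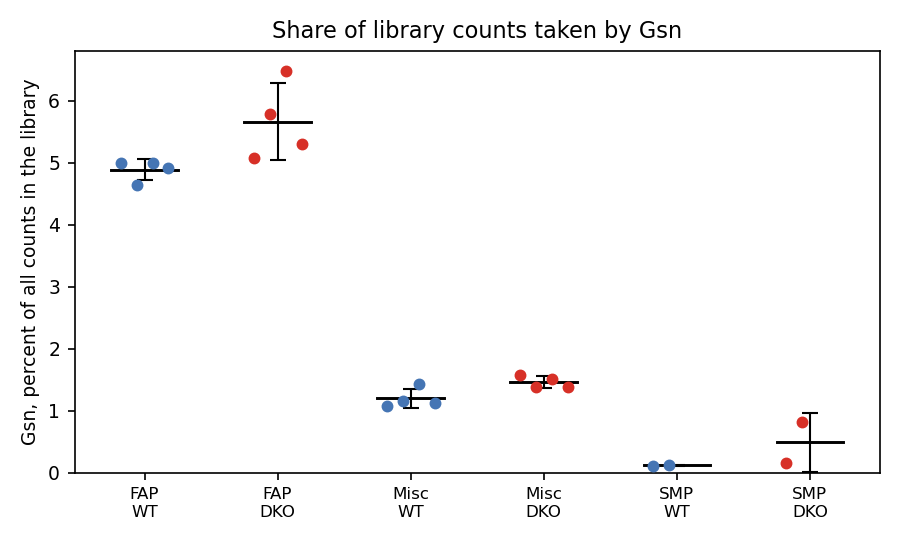
Gsn share of all library counts in percent, one point per library (blue WT, red DKO), with a line at each group's mean and bars of 1 SD. The FAP libraries lie between 4.64% and 6.48%, the Misc libraries between 1.08% and 1.57%, and 3 of the 4 SMP libraries below 0.2%, with SMP DKO replicate 2 at 0.826%.

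By rank, Gsn was first in all 8 FAP libraries. It ranked from 7 to 10 in Misc, where the fibrillar collagens and Thbs4 led, and 69 and 57 in SMP WT. Its rank in SMP DKO was 46 in replicate 1 and 8 in replicate 2. Over all 20 libraries Gsn had the highest mean count of any gene, 284550, followed by Col1a2 at 235474.

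As group means, Gsn stood at 50424 ± 1122 CPM (SD, n = 4) in FAP WT, 12734 ± 1580.3 (n = 4) in Misc WT and 1022 ± 90.9 (n = 2) in SMP WT. FAP WT was 3.96 times Misc WT and 49.4 times SMP WT, and Misc WT was 12.5 times SMP WT. No library of one WT population entered the range of another. Under DKO the means were 59206 ± 7848 CPM in FAP, 15175 ± 936 in Misc and 4182 ± 4172 in SMP. The order of populations was the same as in WT, FAP above Misc above SMP, with ratios of 3.9, 14.2 and 3.63 for FAP over Misc, FAP over SMP and Misc over SMP. The ratios to SMP in DKO turn on replicate 2: without it the log2 difference of FAP from SMP was 5.6 in place of 3.82, and that of Misc from SMP was 3.64 in place of 1.86, next to 5.62 and 3.64 in WT.

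Between conditions, Gsn in FAP read 51107, 61108, 69246 and 55362 CPM in DKO and 51195, 49243, 51553 and 49706 in WT. In Misc it read 16389, 14108, 15148 and 15054 in DKO and 11237, 12417, 14965 and 12317 in WT. The DKO mean was 1.17 times WT in FAP and 1.19 times in Misc, and both pairs of groups overlapped. The log2 changes were 0.23 ± 0.31 (SE) and 0.25 ± 0.31, with a spread shared by all 6 groups. With only the groups compared in the fit they were 0.25 ± 0.11 and 0.26 ± 0.12. In SMP it read 1232 and 7133 CPM for DKO and 957 and 1086 for WT. These groups did not overlap, and the log2 change was 2.03 ± 0.45, or 2.02 ± 1.13 with only the groups compared in the fit. However, it was 0.26 without DKO replicate 2. That library had the highest SMP sums of leukocyte, FAP, muscle fibre, endothelial, adipocyte and tendon markers. The part of these cell types in the change was not tested.

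Per length of merged exon, Gsn exceeded the other members in every library. In FAP WT it reached 15972 ± 356 CPM per kb, followed by Capg at 46.7 ± 1.95, Flii at 20.9 ± 0.927, Svil at 12.2 ± 1.14 and Scin at 5.92 ± 1.3. The order below Gsn changed with the population. In Misc WT it was Svil (29.2 ± 2.48), Capg (22.2 ± 1.26), Flii (16.8 ± 1.1) and Scin (0.606 ± 0.159). In SMP WT, Flii (13.7 ± 1.04) and Capg (12.2 ± 1.19) overlapped, with Svil at 3.01 ± 0.118 and Scin at 0.391 ± 0.0976. Of the family's summed level per kb, Gsn made up 99.4% to 99.6% in FAP, 98.0% to 98.6% in Misc and 91.2% and 92.1% in SMP WT. SMP DKO replicate 1, at 93.0%, lay near SMP WT, and replicate 2, at 98.0%, lay at the lower edge of Misc.

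**Figure D2:**
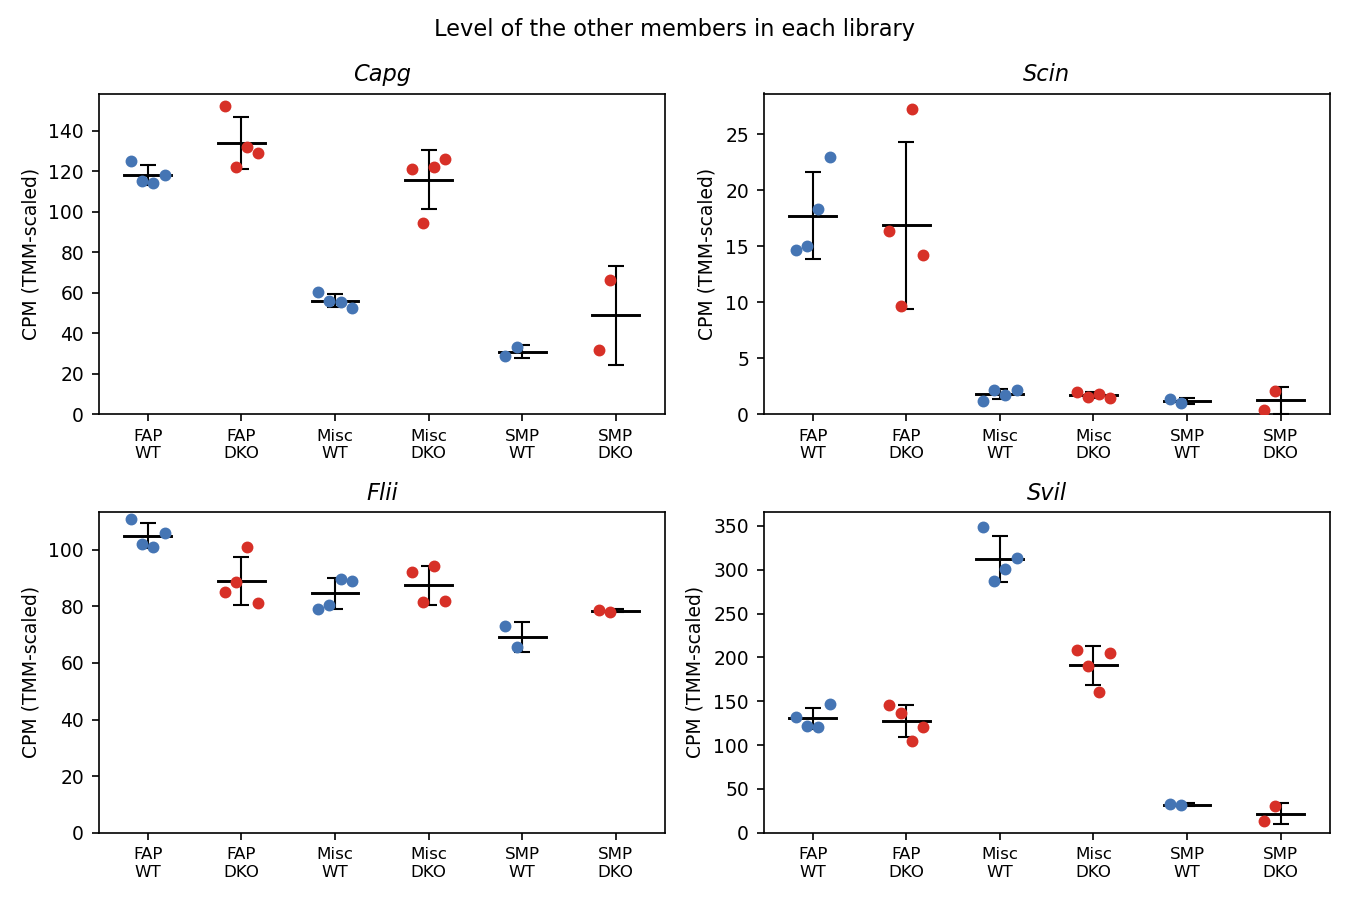
Level of Capg, Scin, Flii and Svil in CPM on linear axes that start at 0, one panel per gene and one point per library (blue WT, red DKO), with group means and bars of 1 SD. Scin is highest in FAP and Svil in Misc, while Flii stays between 65.5 and 111 CPM in all 20 libraries.

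The populations differed in all 4 tested members in WT. Between FAP and Misc, 3 were higher in FAP (Capg, Scin, Flii) and 1 was lower (Svil), where 36.9% of all genes were called, 19.3% higher and 17.6% lower. All 4 were higher in FAP than in SMP, where 62.3% of all genes were called and 31.1% were higher. Against SMP, Misc had 3 members higher (60.6% of all genes called, 30.6% higher), with Scin not passing. In DKO, FAP against Misc had 1 higher and 1 lower (29.7% of all genes called, 16.0% higher and 13.7% lower). FAP against SMP had 3 higher in DKO (58.8% called, 29.2% higher) and Misc against SMP had 2 (59.5% called, 29.8% higher). The share of all genes whose groups did not overlap was 40.0%, 71.8% and 68.2% for FAP against Misc, FAP against SMP and Misc against SMP in WT, and 27.8%, 65.6% and 63.7% in DKO. With so many genes called between populations, these counts say little by themselves, and the sizes below carry the description.

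Scin, the severing protein best known from secretory cells, was several times higher in FAP than in either other population. It read 14.7, 15.0, 18.3 and 23.0 CPM in FAP WT and 16.4, 9.71, 27.3 and 14.2 in FAP DKO. Misc libraries lay between 1.18 and 2.21 CPM and SMP libraries between 0.395 and 2.07, the lowest of which rests on 3 counts. FAP exceeded Misc by 3.31 ± 0.31 on the log2 scale in WT (edgeR adjusted p = 1.1e-08) and by 3.32 ± 0.33 in DKO (adjusted p = 4.4e-08), and no FAP library entered the Misc range. FAP exceeded SMP by 3.9 ± 0.43 in WT and 3.82 ± 0.47 in DKO (edgeR adjusted p = 9.1e-08 and 6e-07). The DKO value was 5.41 ± 0.7 without SMP DKO replicate 2 and 3.06 ± 0.53 without replicate 1, and it passed in both cases. Misc and SMP overlapped in both conditions and did not pass (edgeR adjusted p = 0.31 in WT and 0.48 in DKO). Their DKO difference of 0.5 ± 0.58 was 2.08 ± 0.91 without replicate 2 (adjusted p = 0.06) and -0.27 ± 0.62 without replicate 1 (adjusted p = 0.75).

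Capg, the barbed-end capper without severing activity, was graded over the WT populations. It read 125, 115, 114 and 118 CPM in FAP WT, 60.3, 55.8, 55.5 and 52.7 in Misc WT, and 28.8 and 33.1 in SMP WT, 3 ranges that did not overlap. FAP exceeded Misc by 1.07 ± 0.14 on the log2 scale and SMP by 1.93 ± 0.19, and Misc exceeded SMP by 0.86 ± 0.18 (edgeR adjusted p = 1.6e-06, 1e-08 and 0.00033). In DKO the FAP and Misc ranges overlapped, and their difference of 0.2 ± 0.14 did not pass (adjusted p = 0.3 by edgeR). With the replicate number as a block within each genotype the same difference was 0.2 ± 0.07 (edgeR adjusted p = 0.031). Both remained above SMP in DKO, by 1.45 ± 0.19 for FAP and 1.25 ± 0.19 for Misc (edgeR adjusted p = 7.5e-07 and 5.5e-06). Without SMP DKO replicate 2 these were 2.1 and 1.89, and without replicate 1 they were 1.03 and 0.83, and all 4 values passed.

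Svil, the myosin- and membrane-binding member, was the one highest in Misc. Misc WT read 349, 287, 300.4 and 313 CPM, FAP WT 132, 122, 121 and 147, and SMP WT 33.1 and 31.3. Misc WT was 2.39 times FAP WT and 9.71 times SMP WT without overlap, with log2 differences of -1.26 ± 0.15 for FAP against Misc (edgeR adjusted p = 4e-07) and 3.28 ± 0.22 for Misc against SMP (adjusted p = 2.9e-11). FAP exceeded SMP by 2.02 ± 0.21 (edgeR adjusted p = 1.8e-08). The same order held in DKO, where FAP lay below Misc by a smaller -0.59 ± 0.15 (edgeR adjusted p = 0.0039), and FAP and Misc exceeded SMP by 2.54 ± 0.22 and 3.13 ± 0.22 (edgeR adjusted p = 2.1e-09 and 1.2e-10). Those differences of Svil from SMP were 3.24 and 3.83 without SMP DKO replicate 2 and 2.09 and 2.68 without replicate 1, and all 4 passed.

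Flii, which carries leucine-rich repeats, varied least. Its WT values were 111, 102, 101 and 106 CPM in FAP, 79.2, 80.4, 89.8 and 88.9 in Misc, and 72.9 and 65.5 in SMP. FAP exceeded Misc by 0.32 ± 0.09 and SMP by 0.6 ± 0.11 on the log2 scale (edgeR adjusted p = 0.0047 and 3.1e-05). The difference of Misc from SMP, 0.29 ± 0.11 (edgeR adjusted p = 0.022), depended on the scaling: with unscaled library totals, which moved the median of all genes by -0.31 in that comparison, it was -0.02, and without SMP WT replicate 2 the adjusted p was 0.2. In DKO no pair of populations passed the test for Flii (log2 differences of 0.02, 0.18 and 0.16 with edgeR adjusted p of 0.88, 0.15 and 0.21), and the 2 differences from SMP turned negative with unscaled totals, at -0.14 and -0.15.

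In Misc, Capg rose and Svil fell in DKO, so 1 of the 4 tested members was called in each direction, where 18.7% of all genes were called, 9.15% higher and 9.55% lower. Capg read 121, 94.5, 122 and 126 CPM in DKO and 60.3, 55.8, 55.5 and 52.7 in WT. Every DKO library lay above every WT library, a separation seen in 21.2% of all genes. The DKO mean of 116 ± 14.5 was 2.07 times the WT mean of 56.1 ± 3.18, a log2 change of 1.05 ± 0.14 (edgeR adjusted p = 1.5e-05). Capg in Misc DKO thereby reached the range of the FAP libraries, 114 to 152 CPM, except for replicate 2. The sum of the 15 leukocyte markers was 16.8 to 30.8 CPM in the Misc DKO libraries and 14.4 to 20.1 in the WT libraries, and none of the 12 that were tested was called. The 7 FAP markers summed to 17402 to 19204 CPM in DKO and 22400.4 to 23348 in WT, while 2 of them were called higher. Within that list Pi16 was at 248 to 368 CPM in DKO and 28.9 to 61.4 in WT, and Dpt at 553 to 606 and 279 to 376.

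Svil in Misc read 209, 189.9, 160.2 and 205 CPM for DKO and 349, 287, 300.4 and 313 for WT. All DKO libraries lay below all WT libraries, and the log2 change was -0.71 ± 0.15 (edgeR adjusted p = 0.0016). Means were 191 ± 22.2 in DKO and 312 ± 26.5 in WT. Per kb, the ratio of Svil to Capg was 1.22 to 1.41 in Misc WT and 0.311 to 0.475 in Misc DKO, while FAP libraries lay at 0.189 to 0.295. Other marker sums moved in Misc as well: the pericyte and smooth muscle list was at 64.7 to 89.6 CPM in DKO and 117 to 154 in WT (2 of 7 genes called lower, one of them Des), the nerve list at 53.2 to 62.6 and 112 to 127 (2 of 7 lower), and the muscle fibre list at 45.2 to 80.7 and 27.8 to 34.4 (5 of 9 higher). The endothelial list was at 46.4 to 76.5 CPM in DKO and 87 to 120.5 in WT (1 of 7 lower), the tendon list had 2 of 8 higher and 3 lower, and the satellite-cell list had 2 of 9 higher. The part of all these cell types in the changes of Svil and Capg was not tested. Scin and Flii did not pass in Misc (-0.07 ± 0.4 and 0.05 ± 0.09, edgeR adjusted p = 0.93 and 0.73).

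In FAP, none of the 4 tested members was called between DKO and WT by edgeR, where 10.7% of all genes were called. One, Flii, had an unadjusted p under 0.05, and DESeq2 called the same gene. Flii read 85.1, 88.7, 101 and 81.3 CPM in DKO and 111, 102, 101 and 106 in WT, and the highest DKO value lay just under the lowest WT value, a separation found in 19.2% of all genes. Its log2 change was -0.24 ± 0.09 (edgeR adjusted p = 0.072), with an adjusted p of 0.039 by DESeq2 and of 0.03 without FAP DKO replicate 3. Capg read 152, 122, 132 and 129 CPM in DKO and 125, 115, 114 and 118 in WT, overlapping groups with a log2 change of 0.18 ± 0.14 (edgeR adjusted p = 0.47). Svil read 146, 137, 105 and 120.1 CPM in DKO, around its WT values (-0.04 ± 0.15, edgeR adjusted p = 0.9). Scin had the widest spread among the FAP DKO libraries, 9.71 to 27.3 CPM, and a log2 change of -0.06 ± 0.25 (adjusted p = 0.92 by edgeR).

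In SMP, Capg was called higher in DKO and the other 3 tested members were not, where 23.0% of all genes were called, 11.8% higher and 11.2% lower. Capg read 31.6 and 66.2 CPM in DKO and 28.8 and 33.1 in WT, so that replicate 1 lay within the WT range and replicate 2 above it. The log2 change of 0.66 ± 0.21 (edgeR adjusted p = 0.028) was 0.02 ± 0.18 without DKO replicate 2 (adjusted p = 0.95). A fit of the SMP libraries alone also gave no call (adjusted p = 0.35), nor did fits without either WT library (adjusted p = 0.17 and 0.065). Among the 15 leukocyte markers, 10 of the 12 tested were called higher in SMP DKO, as were 4 of 7 FAP markers and 8 of 9 muscle fibre markers, and in SMP WT 7 of the 15 leukocyte markers had no count. The part of leukocyte, FAP, muscle fibre, endothelial, adipocyte and tendon RNA in the Capg values was not tested.

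Svil in SMP read 13.6 and 30.2 CPM in DKO and 33.1 and 31.3 in WT. The groups did not overlap, as in 55.7% of all genes in this comparison, and the log2 change of -0.56 ± 0.23 did not pass (edgeR adjusted p = 0.084). Without DKO replicate 2 Svil was at -1.26 ± 0.22 (adjusted p = 0.00054), and without DKO replicate 1 it was -0.11 ± 0.2 (adjusted p = 0.75). Flii read 78.8 and 78.1 CPM in DKO and 72.9 and 65.5 in WT, a log2 change of 0.18 ± 0.12 (edgeR adjusted p = 0.3). Scin rested on 3 to 17 counts per SMP library, and its log2 change of 0.02 ± 0.66 (edgeR adjusted p = 0.99) was -1.56 ± 1.0 without DKO replicate 2 and 0.8 ± 0.68 without replicate 1, neither of which passed.

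**Figure D3:**
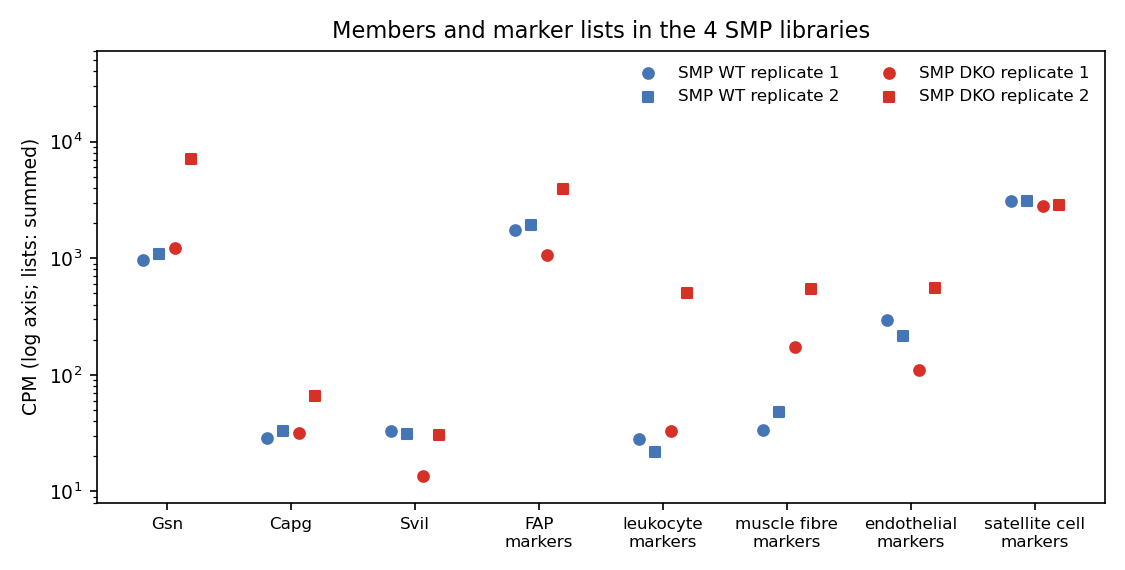
Gsn, Capg and Svil and the summed FAP, leukocyte, muscle fibre, endothelial and satellite-cell marker lists in the 4 SMP libraries, in CPM on a log axis. In SMP DKO replicate 2, Gsn (7133 CPM), Capg (66.2) and the FAP list (3938) lie above the other 3 libraries. So do the leukocyte (499), muscle fibre (541) and endothelial (555) lists, while the satellite-cell list stays between 2791 and 3087 CPM.

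Whether the DKO effect differed between populations was tested directly. Between FAP and Misc, 1 of the 4 tested members was called (2.79% of all genes, 1.42% in the same direction): Capg changed by 0.87 ± 0.2 less in FAP than in Misc on the log2 scale (edgeR adjusted p = 0.016). The adjusted p rose to 0.052 without Misc DKO replicate 4 and, separately, without Misc WT replicate 4. With the replicate block within each genotype the Capg difference was -0.84 ± 0.11 (edgeR adjusted p = 6.4e-06). For Svil the difference was 0.67 ± 0.21 with an edgeR adjusted p of 0.11, which became 0.045 by DESeq2, 0.0089 with only the FAP and Misc libraries in the fit, and 9.6e-05 with that block. For Scin and Flii it did not pass (0.01 ± 0.46 and -0.29 ± 0.12, edgeR adjusted p = 1.0 and 0.27).

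Between FAP and SMP no tested member passed the edgeR test for a difference of its DKO effect (10.3% of all genes called). Flii alone had an unadjusted p under 0.05 there, with a difference of -0.42 ± 0.15 (edgeR adjusted p = 0.071, DESeq2 adjusted p = 0.029). None passed between Misc and SMP by edgeR or by DESeq2 (8.94% of all genes called by edgeR), and none had an unadjusted p under 0.05. These comparisons changed with single libraries. Without SMP DKO replicate 2, Svil differed by 1.21 ± 0.25 between FAP and SMP (edgeR adjusted p = 0.0028) and Capg by 1.02 ± 0.21 between Misc and SMP (adjusted p = 0.0025). Between FAP and SMP, Capg differed by -0.91 ± 0.19 without SMP DKO replicate 1 (edgeR adjusted p = 0.0026), by 0.15 ± 0.2 without replicate 2 (adjusted p = 0.72), and Flii by -0.49 ± 0.15 without FAP DKO replicate 3 (adjusted p = 0.04). For Gsn the differences of the DKO effect were -0.02 ± 0.44 for FAP minus Misc, -1.8 ± 0.54 for FAP minus SMP and -1.78 ± 0.54 for Misc minus SMP. With only the groups compared in the fit the SEs were 0.16, 0.7 and 0.7. The differences from SMP became -0.03 for FAP and -0.01 for Misc without SMP DKO replicate 2.

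**Figure D4:**
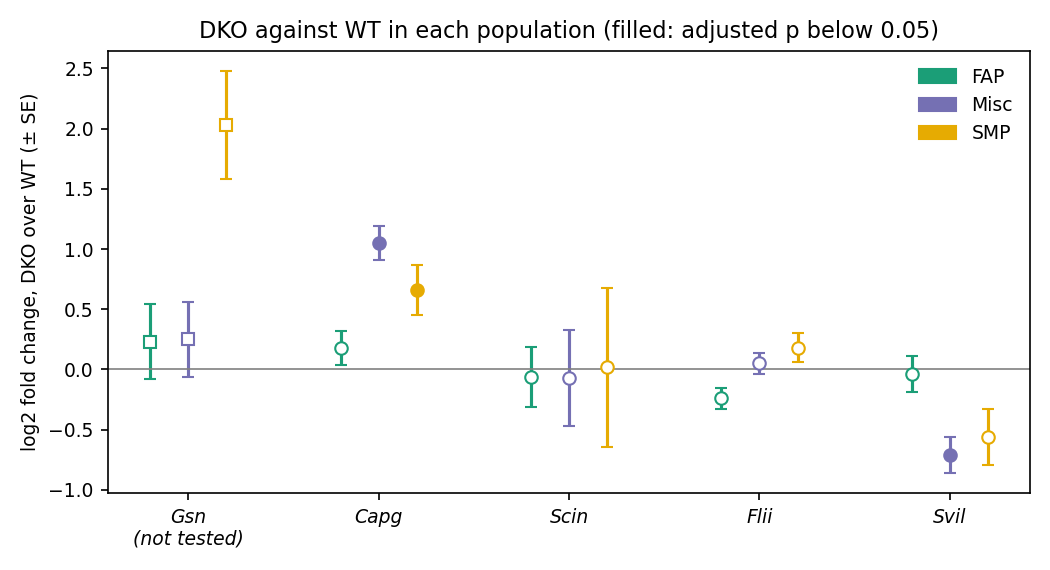
Log2 fold change of DKO over WT with its SE for each member in FAP, Misc and SMP. Squares are Gsn, which was not tested, and filled points have an adjusted p below 0.05, which are Capg in Misc (1.05) and SMP (0.66) and Svil in Misc (-0.71).

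The remaining genes of the superfamily, villin (Vil1), villin-like (Vill) and advillin (Avil), were near the limit of detection. Vil1 lay between 0.373 and 2.11 CPM, Vill between 0.12 and 3.86 and Avil between 1.32 and 5.59. None of the 3 was called between DKO and WT in any population. Vill was the only one to differ between populations, opposite to Gsn in its relation to SMP. It read 3.0 and 3.86 CPM in SMP WT. On the log2 scale it was lower by 1.89 ± 0.45 in FAP WT and by 3.3 ± 0.49 in Misc WT (edgeR adjusted p = 0.00079 and 3.6e-06). In DKO, Misc lay below SMP (-2.29 ± 0.57, edgeR adjusted p = 0.0013), and FAP against SMP did not pass (-0.92 ± 0.5, adjusted p = 0.12). Like Gsn, Vill was higher in FAP than in Misc, by 1.4 ± 0.49 in WT and 1.37 ± 0.51 in DKO (edgeR adjusted p = 0.025 and 0.046).

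Other genes that build, cap, cut or bundle actin filaments were followed through 12 lists with 95 genes, of which 93 were tested. In FAP, 13 were higher in DKO, 8 were lower and 72 did not pass, so 22.6% were called against 10.7% of all genes (5.58% higher, 5.14% lower), and the median change was 0.0. In Misc, 23 were higher, 6 lower and 64 did not pass (31.2% against 18.7%, median 0.1). In SMP, 23 were higher, 9 lower and 61 did not pass (34.4% against 23.0%, median 0.24), and the medians over all genes were -0.01, 0.01 and 0.01. The number called fell from 21 to 12 in FAP without DKO replicate 2. In SMP it fell from 32 to 22 without DKO replicate 2, to 14 and 21 without WT replicates 1 and 2, and to 10 with only SMP libraries in the fit.

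Among the 14 genes for severing and disassembly, Mical2, an enzyme that oxidises actin and so disassembles filaments, rose in all 3 populations. In FAP it stood at 58.5 ± 6.02 CPM in DKO (SD, n = 4) and 20.6 ± 1.01 in WT, a log2 change of 1.5 ± 0.14 (edgeR adjusted p = 1.9e-07). In Misc it stood at 60.3 ± 13.7 and 11.7 ± 0.659 (2.36 ± 0.15, edgeR adjusted p = 2.1e-10). In SMP it stood at 60.5 ± 14.9 and 21.1 ± 4.85 (n = 2, 1.52 ± 0.2, edgeR adjusted p = 1.7e-05), with a log2 change of 1.74 ± 0.22 without DKO replicate 2. Cofilin 2 (Cfl2), coronin 1C (Coro1c) and Mical1 fell in FAP, by 0.39, 0.48 and 0.41 on the log2 scale, and Cap2, a cyclase-associated protein, rose by 2.15 ± 0.3 from a low level of 0.759 ± 0.367 CPM. Mical3 fell by 0.47 in Misc.

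The list of actins had 1 called member in FAP, where cytoplasmic beta-actin (Actb) fell from 643 ± 34 to 479 ± 51.4 CPM (log2 change -0.43 ± 0.11, edgeR adjusted p = 0.012). In Misc and SMP it was the skeletal muscle actin Acta1 that rose, by 1.28 ± 0.28 and 3.47 ± 0.39, with cardiac actin Actc1 (1.64 ± 0.56) in SMP. Without SMP DKO replicate 2, Acta1 was at 2.52 ± 0.28 and Actc1 did not pass (edgeR adjusted p = 0.067), nor did Actc1 without replicate 1 (adjusted p = 0.16). Acta1 is itself one of the muscle fibre markers, which summed to 174 and 541 CPM in SMP DKO and 33.8 and 48.4 in SMP WT. The part of muscle fibre RNA in these changes was not tested.

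Of the 26 filament nucleation genes, 25 were tested. Over all genes, 5.58%, 9.15% and 11.8% were called higher in FAP, Misc and SMP, and 5.14%, 9.55% and 11.2% lower. The numbers that fell in this list were near those shares. In FAP 6 rose, among them the formin Fmnl3 (0.92 ± 0.13), Cobl (1.0 ± 0.19) and Spire1 (0.72 ± 0.13), and 2 fell, one of them Wasf2 (-0.39 ± 0.08), a WAVE subunit that activates Arp2/3. In Misc 8 rose, including Cobl (1.01 ± 0.17) and Fmnl3 (0.87 ± 0.11), and 3 fell, which were Wasf3 (-0.92 ± 0.26), Fhod3 (-0.67) and Wasf2 (-0.24). Wasf3 was at a low level there, 1.2 to 2.86 CPM in DKO and 2.89 to 4.64 in WT. In SMP 7 rose, with Arpc1b of the Arp2/3 complex at 0.87 ± 0.19, and 3 fell, which were Wasf3 (-1.87), Daam2 (-0.72) and Diaph2 (-0.62). Without SMP DKO replicate 2, Arpc1b was at 0.34 ± 0.17 and did not pass (edgeR adjusted p = 0.19), Wasf3 was at -2.38, Daam2 at -1.12 and Diaph2 at -0.78. Without replicate 1, Daam2 and Diaph2 did not pass (edgeR adjusted p = 0.16 and 0.14).

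With all libraries, crosslinkers and bundlers were called higher in 3 of 12 cases in FAP, 4 in Misc and 3 in SMP, and none was called lower. In SMP this depended on DKO replicate 2. Without it, Actn1 was at -0.53 and Pls3 at -0.81 in place of -0.3 and -0.4. Flnc went the other way, to 0.7 from 0.5. Of all genes 10.7%, 18.7% and 23.0% were called, so 3 of 12 in SMP is near the background. Alpha-actinin 1 (Actn1) rose in FAP from 28.7 ± 3.13 to 55.5 ± 4.62 CPM (0.95 ± 0.1, edgeR adjusted p = 4.4e-07). Transgelin 2 (Tagln2) rose in Misc from 119 ± 6.64 to 242 ± 22.7 CPM (1.02 ± 0.1, edgeR adjusted p = 8e-08) and in SMP by 0.8 ± 0.14. Tropomyosin 1 (Tpm1) fell in Misc by 0.76 ± 0.13, and the pointed-end capper Tmod2 rose there (0.93 ± 0.17) but fell in SMP (-0.8 ± 0.27). The cofilin phosphatase Ssh2 fell in all 3 populations, by 0.37 ± 0.1 in FAP, 0.59 ± 0.1 in Misc and 0.86 ± 0.14 in SMP. Without SMP DKO replicate 2 the SMP values were 0.57 for Tagln2, -1.25 for Tmod2 and -0.8 for Ssh2, and without replicate 1 Tmod2 did not pass (edgeR adjusted p = 0.3). Tendon markers also moved in FAP, where their sum was 3159.7 to 5051 CPM in DKO and 716 to 969.5 in WT (2 of 8 called higher), and endothelial markers summed to 143 to 239 and 304 to 382 CPM (1 of 7 called lower). Most of that sum was Tek, at 110.1 to 165 CPM in DKO and 270.2 to 289.5 in WT, and Kdr overlapped. Their part in the changes of actin genes was not tested.

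Partners of Flii and Svil formed a list of 4 genes, of which 2 rose in FAP, 3 in Misc and 1 in SMP, and none fell. Of all genes 5.58%, 9.15% and 11.8% were called higher, and 23.0% in either direction in SMP. A single gene of 4 says little beside these shares, and 4 genes are few for a share in any population. Lrrfip1, whose protein binds the leucine-rich repeats of Flii, rose in each population, by 0.53 ± 0.1 in FAP, 0.61 ± 0.11 in Misc and 1.26 ± 0.14 in SMP (edgeR adjusted p = 0.0015, 0.00021 and 2.1e-06). In SMP its mean went from 69.2 ± 2.07 to 165 ± 28.9 CPM, and the log2 change was 1.41 ± 0.15 without SMP DKO replicate 2. Myh9, the heavy chain of the myosin II that supervillin binds, rose by 0.3 ± 0.09 in FAP and 0.43 ± 0.09 in Misc. Flii itself did not pass in any population.

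Across the 20 libraries, the genes whose log2 levels were most like those of Gsn were Clec3b (Pearson r = 0.993), C1s1 (0.992), Tcn2 (0.99), Prr13 (0.988) and Rhoc (0.987), among 10236 genes compared. Most like Scin were Cd34 (0.981), itself one of the FAP markers, Enpp3 (0.974) and Tnfsf9 (0.972). Capg was nearest to Loxl1 (0.972), Mfap5 (0.97) and Smpdl3a (0.96), and Svil to Sgcd (0.985), Chrdl1 (0.984) and Aff3 (0.983). For Flii the highest value was 0.902, with Sh3gl1. Among the members, Gsn ran closest to Capg (0.9) and Scin (0.84) and less so to Flii (0.77) and Svil (0.6), and Scin and Svil were at 0.21. These values are descriptions: the libraries fall into 3 populations and share their scaling.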

How the data were processed

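RNA of 3 muscle cell populations in DKO and WT mice was sequenced in read pairs and mapped with OSA to mm10 with RefSeq annotation, per the series design text. The authors deposited raw counts per gene, and the submitters' processing notes list DESeq2 with no version. The counting tool, its use of strand and how the populations were separated are not stated. Beyond the word biological nothing says that replicates came from separate animals, so p-values measure only the spread between these libraries. Of 24393 gene IDs, 24312 matched RefSeq (GRCm38.p6), and 52 blank or date-like symbols were restored by ID.

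The members and lists were chosen with earlier results of these data known. Genes passing filterByExpr (minimum count 10, total 15) numbered 14179. Counts were scaled by TMM and fitted in edgeR 4.0.16 (R 4.3.3) by quasi-likelihood over all 6 groups without a block, for 12 comparisons. Benjamini-Hochberg adjustment covered all genes of a comparison, with calls at 0.05, and the SE is the absolute log2 change over the square root of F. Alternatives included DESeq2 1.42.0, other scalings, no filter, fewer groups, a replicate block and leaving out each library. The scripts were tested on simulated data. Named genes were the members, the remaining superfamily genes, and in each DKO comparison up to 6 list genes each way with the largest change among those called, non-overlapping groups and a mean CPM of 5 or more. Lrrfip1 and Myh9 in FAP and Misc were named after their values were seen. Likeness is Pearson's r of log2 CPM (prior count 2) for genes above the same mean.

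Same-numbered FAP and Misc libraries of one genotype deviated together (r of 0.18 to 0.34 in 8 pairs, -0.18 to 0.06 for other numbers), so the numbers pair FAP with Misc within genotype. No label states this pairing. In the deposited order of libraries, same-numbered FAP and Misc libraries stand together, and SMP libraries stand among those of another number. SMP libraries (-0.26 to 0.06) were not paired by number. Libraries of different genotype ran at -0.29 to 0.29 at the same number. Among them, FAP DKO and FAP WT ran at -0.06 to 0.29, and at -0.21 to 0.16 at other numbers. Whether the numbers join the genotypes in FAP was not tested. At other numbers of one genotype, SMP ran at -0.14 to 0.26 with FAP and -0.15 to 0.15 with Misc.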

Additional observations from a re-analysis of the deposited data

Results flagged for a closer look

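In Misc DKO, the Capg value of replicate 2, 94.5 CPM, stood apart from the other 3 libraries at 121, 122 and 126 CPM by more of the group's range than Dixon's 95% limit for 4 values allows. Chance alone marks about 1 in 20 groups, and 20 groups were checked. Without that library, the Capg change in Misc was 1.13 in place of 1.05 on the log2 scale.

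The DKO effect on Capg differed between FAP and Misc by -0.87 ± 0.2 on the log2 scale (edgeR interaction test, adjusted p = 0.016). In Misc all 4 DKO libraries lay above all 4 WT libraries, and in FAP the groups overlapped.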

How the results depend on the processing

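The number of tested members called moved by over 1.5 times in these cases. In FAP DKO against WT, DESeq2 called 1 member in place of 0, and leaving out a library gave 0 to 1. In SMP DKO against WT, only the groups compared gave 0 members and leaving out a library 0 to 1. For the DKO effect in FAP minus Misc, DESeq2, only the groups compared and the replicate block within genotype each gave 2 in place of 1, and leaving out a library 0 to 1. In FAP minus SMP DESeq2 gave 1 and leaving out a library 0 to 1, and in Misc minus SMP leaving out a library gave 0 to 1. Over all genes, calls in FAP DKO against WT ranged from 932 to 1696 without single libraries (1520 with all), and in SMP from 1821 to 2830 (3257 with all, 924 with only the groups compared). The interactions ranged from 777 to 1783 in FAP minus SMP (1465 with all) and from 782 to 1583 in Misc minus SMP (1268 with all, 800 with only the groups compared). The replicate block within genotype, an alternative chosen after seeing the data for that interaction, raised FAP minus Misc from 396 to 1246. As an additive factor over all libraries, the replicate block gave 1568 calls in FAP, 2630 in Misc and 3200 in SMP and changed no member's call. That block also joins SMP with FAP and Misc by numbers that did not pair them. It joins DKO with WT as well, by numbers not shown to pair them. Calls in the actin lists ranged from 12 to 21 in FAP and from 14 to 31 in SMP, where only the groups compared gave 10. Without the 20 most counted genes in the total, the Gsn share was 7.17% in FAP DKO, 6.15% in FAP WT, 1.97% in Misc DKO, 1.65% in Misc WT and 0.146% in SMP WT. It was 5.14% in FAP WT over a total without Gsn and 0.102% in SMP WT over TMM-scaled totals. Signs turned in 45 settings over all members, of which 9 were for Gsn in FAP minus Misc (-0.02, turning to at most 0.07). The one called difference among them was Flii for Misc against SMP in WT. With unscaled totals Flii became -0.02 for Misc against SMP in WT, -0.14 for FAP against SMP and -0.15 for Misc against SMP in DKO, and Scin -0.05 for the DKO effect in FAP minus Misc. That scaling moved the median of all genes by -0.27 to -0.32 in comparisons with SMP and by at most 0.04 elsewhere. The Scin effect in SMP was -0.0033 without a filter, and in FAP minus Misc -0.0039 with the additive block. Leaving out a library gave Scin -0.38 to 0.12 for DKO in FAP, -0.28 to 0.04 in Misc, -1.56 to 0.8 in SMP, -0.27 to 2.08 for Misc against SMP in DKO, and -0.32 to 0.24, -0.85 to 1.5 and -0.86 to 1.49 for the interactions FAP minus Misc, FAP minus SMP and Misc minus SMP. Flii ranged from -0.0034 to 0.08 for DKO in Misc and from -0.04 to 0.06 for FAP against Misc in DKO. Svil ranged from -0.11 to 0.04 for DKO in FAP and from -0.61 to 0.54 for Misc minus SMP, and Capg from -0.91 to 0.15 for FAP minus SMP and from -0.04 to 1.02 for Misc minus SMP. The cause was not tested. Depth limits Scin, Vil1 and Vill most, with as few as 1 to 5 counts in a library.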
